A study of Mus musculus with 6 samples.

Results

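The genes described are 44 subunits and enzymes of complexes that remodel nucleosomes or modify histones and DNA: 14 of the BAF (SWI/SNF) complexes, 10 of NuRD, 10 of Polycomb and 10 other modifiers. Each gene was represented by a transcript cluster of the array annotated to it alone, and where several existed, by the one with the highest mean over the 6 arrays. This gave values for 40 of the 44 genes among 14996 clusters annotated to a single gene. *Arid1b*, *Kmt2d* and *Crebbp* were matched to no such cluster and *Arid2* was matched only to a cluster shared with *1700124K17Rik*, so these 4 are not analysed further as members, although the *Arid2* joint cluster had a difference of -0.16 on the log2 scale.

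RNA came from whole hearts at E9.5 with the blood inside them, in pools of 4 to 6 hearts per array. The mutant group held 3 pools of hearts with Cre to delete *Hic2* (*Mesp1*Cre/+; *Hic2* FL/FL). The wildtype group held 3 pools without Cre (*Mesp1*+/+; *Hic2* FL/FL), so both groups carried the floxed *Hic2* allele on both chromosomes. Cre was made from the *Mesp1* locus, which is active in early anterior mesoderm whose descendants include the heart and part of the blood, and it replaces *Mesp1* coding sequence, so mutants also had a single working copy of *Mesp1*. Embryos with Cre and intact *Hic2* are not part of the arrays used, and the effects of *Hic2* deletion and of the lost *Mesp1* copy cannot be told apart. Per the study's methods the hearts came from embryos with no phenotype.

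HIC2 is a zinc finger repressor of transcription. Its paralogue HIC1 is known in human cells to bind the corepressor CtBP and to recruit NuRD through MTA1, the BAF subunit ARID1A and, through the Polycomb-like protein PHF19, PRC2. BAF complexes slide or evict nucleosomes with the ATPases SMARCA4 or SMARCA2, NuRD couples the CHD3 or CHD4 ATPase to histone deacetylation, and the Polycomb complexes PRC2 and PRC1 methylate and ubiquitylate histones at silent developmental genes. Several of these genes are known for heart development, among them *Smarcd3*, which encodes the BAF60c subunit of cardiac BAF, and *Chd7*, the CHARGE syndrome gene.

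All values are log2 RMA values, differences are mutant minus wildtype on that log2 scale, and errors of differences are standard errors (SE) from limma. Levels are compared only within a gene, since clusters carry different probes. The deleted gene had values of 8.27, 8.23 and 8.37 in the mutant pools and 9.35, 9.36 and 8.91 in the wildtype pools, a difference of -0.92 (SE 0.14, adjusted p = 0.125, limma). The groups did not overlap for *Hic2*, and wildtype replicate 3 was the lowest wildtype pool. The ratio of mutant to wildtype was 0.529, so array signal for *Hic2* remained in the mutant hearts. The adjusted p of *Hic2* was 0.0249 without wildtype replicate 3 and 0.0262 to 0.0442 under the 4 other scalings of the arrays (limma). Over the 10439 clusters tested, the median difference was -0.09 and 71.8% of clusters lay below 0, so the members are set against that shift throughout. After quantile normalisation the median over all clusters was -0.03. Per array the median of the clusters tested was 9.29, 9.18 and 9.25 in the mutant pools and 9.43, 9.37 and 9.18 in the wildtype pools. Cardiomyocyte markers were high in every pool, for example *Tnnt2* at 13.60 to 13.65 in the mutant pools and 13.63 to 13.65 in the wildtype pools. The median of 19 erythroid markers was 8.87, 8.70 and 9.46 in the mutant pools and 8.58, 8.15 and 7.69 in the wildtype pools, and all 19 were above 0. The median of 4 liver and yolk sac markers was 6.45, 5.11 and 8.52 in the mutant pools and 6.43, 4.97 and 4.90 in the wildtype pools, so mutant replicate 3 stood apart there. In whole hearts, fewer cells of a type and less RNA per cell cannot be told apart.

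No chromatin complex gene differed between mutant and wildtype hearts past the adjusted threshold, and the differences measured were small. All 40 measured members passed the intensity filter, and all 40 did so in both genotypes. Their differences ranged from -0.32 for *Chd7* to 0.09 for *Smarce1*, with a median of -0.09, close to that of all clusters tested. The members' median was -0.05 without mutant replicate 2 and -0.16 without mutant replicate 3, where that of all clusters was -0.06 and -0.10. After quantile normalisation it was -0.04, against -0.03 for all clusters. The adjusted p of the members was 0.606 to 0.996 (limma), in a fit that called 0.0671% of all clusters higher and 0% lower. Past an unadjusted p of 0.05, 2 of 40 members were lower in mutant hearts (5%, against 5.9% of all clusters) and 0 were higher (against 1.68% of all clusters). The methods' t-test, at an unadjusted p under 0.05, gave 3 members on log2 values, *Smarcc1* and *Arid1a* lower and *Smarce1* higher in mutants. Of all clusters it gave 4.05% lower and 1.58% higher. On linear values it gave 2, *Smarcc1* lower and *Smarce1* higher, against 4.17% and 1.58% of all clusters. After Benjamini-Hochberg adjustment it gave 0 on either scale. The study's final list also required a mean fold change over 1.5, which no member reached.

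**Figure D1:**
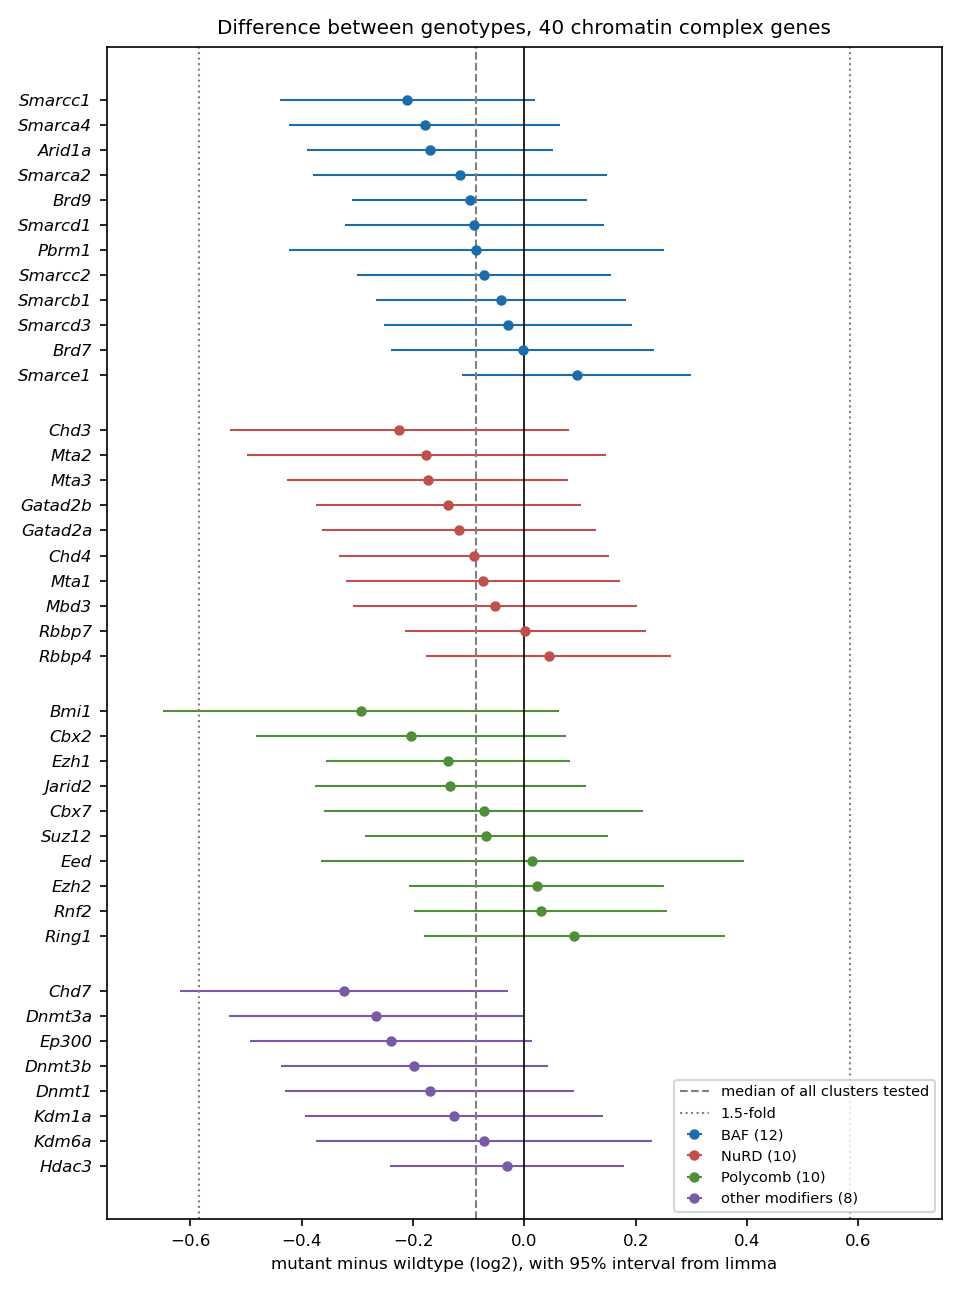
Difference between mutant and wildtype hearts (log2, mutant minus wildtype, x axis) for each of the 40 measured members grouped by complex, with 95% limma intervals as bars. Most members lie close to the median of all clusters tested, and the differences run between -0.32 for *Chd7* and 0.09 for *Smarce1*.

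Most members lay below 0, as did most clusters of the array. Differences lay below 0 for 33 of 40 members, or 82.5%, against the 71.8% of all clusters. After quantile normalisation 29 of 40 lay below 0, or 72.5% (58.2% of all clusters), and 1 of 40 was lower at an unadjusted p under 0.05 (5.71% of all clusters), this being *Chd7*. All 3 mutant pools lay below all 3 wildtype pools for 7 members (9.59% of all clusters), namely *Smarcc1*, *Arid1a*, *Brd9*, *Dnmt3a*, *Ep300*, *Dnmt3b* and *Ezh1*, and above them for *Smarce1* alone (2.82% of all clusters). The precision was enough to bound most members: the 95% interval lay within a 1.5-fold change either way for 38 of 40 (84% of all clusters). The exceptions were *Chd7* and *Bmi1*, whose intervals reached past a 1.5-fold fall but not past a 1.5-fold rise.

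The 12 BAF members measured cover the ATPases, the core scaffold and the subunits that define its variants. Of these, 11 were below 0 with a median of -0.09, and 0 passed either threshold in limma. The BAF median was -0.03 without mutant replicate 2 and -0.01 after quantile normalisation. *Smarcc1* encodes BAF155, a scaffold around which the complex assembles. Its values were 11.06, 10.90 and 11.12 in the mutant pools and 11.26, 11.27 and 11.18 in the wildtype pools. Every mutant pool was below every wildtype pool, by a small margin between mutant replicate 3 and wildtype replicate 3, and the difference was -0.21 (SE 0.10, adjusted p = 0.606, limma). *Arid1a* encodes the large DNA-binding subunit of canonical BAF, the one that human HIC1 is known to contact. It had values of 10.71, 10.68 and 10.75 in the mutant pools and 10.94, 10.94 and 10.77 in the wildtype pools, with a difference of -0.17 (SE 0.10, adjusted p = 0.608, limma). The mutant pools were close together, and wildtype replicate 3 lay just above them while the other wildtype pools were higher.

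The catalytic subunit BRG1 comes from *Smarca4*. Its values were 11.32, 11.19 and 11.43 in the mutant pools and 11.59, 11.50 and 11.39 in the wildtype pools, a difference of -0.18 (SE 0.11, adjusted p = 0.616, limma). The groups overlapped because mutant replicate 3 exceeded wildtype replicate 3. The alternative ATPase gene *Smarca2* had a difference of -0.12 (SE 0.12). The cardiac subunit gene *Smarcd3* had values of 11.15, 11.07 and 11.01 in the mutant pools and 11.19, 11.03 and 11.11 in the wildtype pools, so its groups overlapped, and its difference of -0.03 had an interval of -0.25 to 0.19. *Smarcd1*, which encodes the alternative BAF60a subunit, had a difference of -0.09 and *Smarcc2*, the BAF170 partner of *Smarcc1*, one of -0.07. *Smarcb1*, a core subunit lost in rhabdoid tumours, was at -0.04.

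*Smarce1* encodes BAF57, a DNA-binding subunit found in vertebrate BAF, and was the only BAF member above 0. It had values of 11.69, 11.69 and 11.62 in the mutant pools and 11.58, 11.54 and 11.59 in the wildtype pools. All mutant pools were above all wildtype pools, with a difference of 0.09 (SE 0.09, adjusted p = 0.708, limma). The members of the variant complexes were *Pbrm1* and *Brd7*, which belong to PBAF, and *Brd9*, which belongs to the non-canonical form. *Brd9* had a difference of -0.10 with no overlap between genotypes, and *Pbrm1* one of -0.09, with values of 10.40, 10.31 and 10.83 in the mutant pools and 10.48, 10.67 and 10.66 in the wildtype pools. A second cluster of *Pbrm1* gave -0.11. *Brd7* was the BAF member with the smallest difference, at 10.63, 10.51 and 10.55 in the mutant pools and 10.67, 10.61 and 10.43 in the wildtype pools, which overlapped fully (difference -0.00343, SE 0.10, adjusted p = 0.993, limma).

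**Figure D2:**
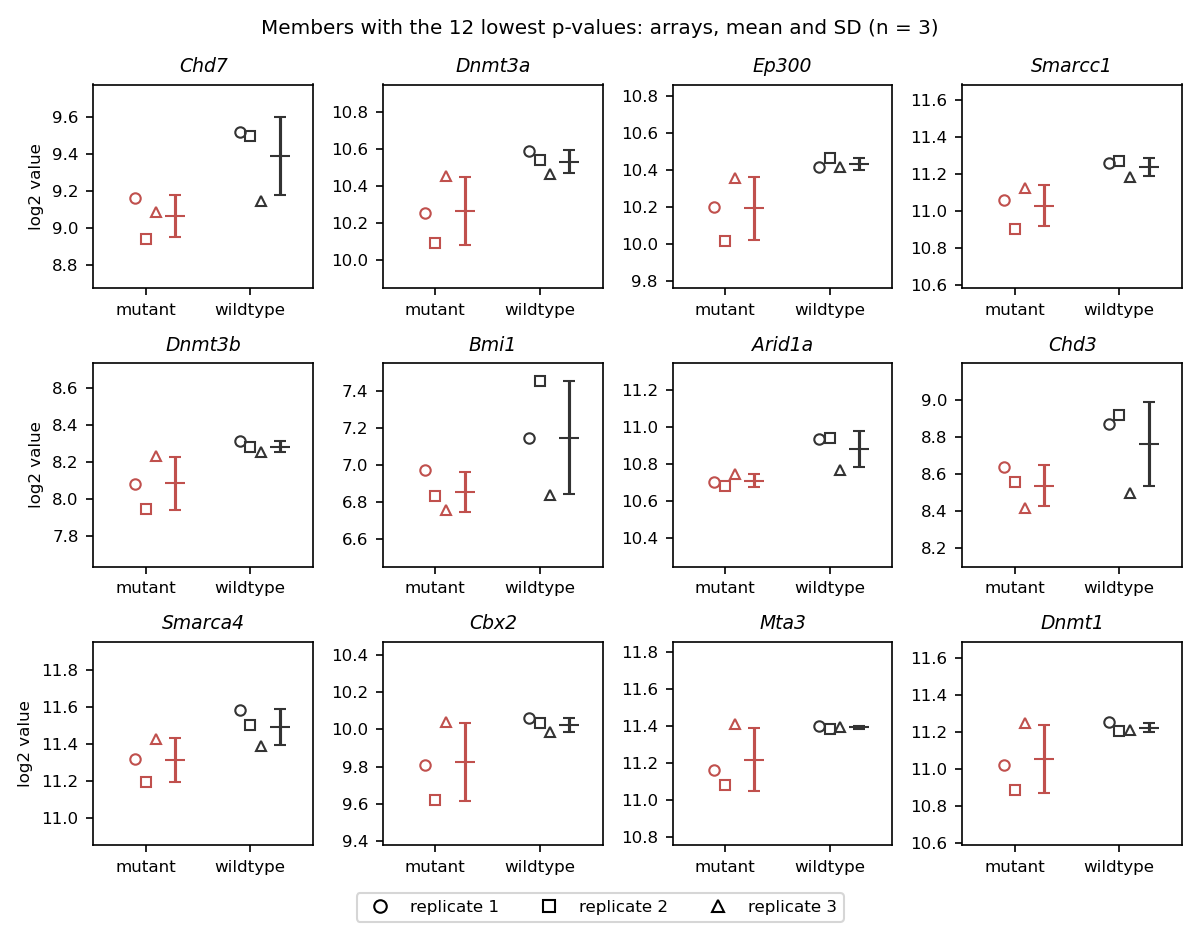
Log2 RMA value (y axis) of each of the 12 members with the lowest limma p in every pool, mutant pools left of wildtype pools, with the mean and SD (n = 3) as bars. The genotypes do not overlap for *Smarcc1*, *Arid1a*, *Dnmt3a*, *Ep300* and *Dnmt3b*, and overlap for the other 7.

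All 10 NuRD members were measured, 8 were below 0 and the median difference was -0.10, or -0.07 after quantile normalisation. None passed either threshold in limma and none separated the genotypes. The ATPase gene *Chd3* had the largest difference, with values of 8.64, 8.56 and 8.42 in the mutant pools and 8.87, 8.92 and 8.50 in the wildtype pools (difference -0.22, SE 0.13, adjusted p = 0.616, limma). Wildtype replicate 3 lay below the first 2 mutant pools. *Chd4*, the ATPase gene needed for cardiomyocyte identity in mouse hearts, had a difference of -0.09 (SE 0.11). The MTA proteins are scaffolds that bind the deacetylases, and *Mta1*, *Mta2* and *Mta3* had differences of -0.07, -0.18 and -0.17.

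*Mta3* was at 11.16, 11.08 and 11.41 in the mutant pools and 11.40, 11.38 and 11.39 in the wildtype pools (SE 0.11, adjusted p = 0.626, limma). Here the wildtype pools were nearly identical and mutant replicate 3 sat just above them. *Mta2* was at 10.62 to 11.12 in the mutant pools and 10.90 to 11.13 in the wildtype pools, and replicate 3 was the highest pool in both groups. The linker subunits p66-alpha and p66-beta come from *Gatad2a* (difference -0.12) and *Gatad2b* (difference -0.14). A cluster that *Gatad2a* shares with *Zfp868* and *Zfp869* gave -0.000213. *Mbd3*, which separates NuRD from the related MBD2 complex, was at -0.05. The histone chaperone genes *Rbbp4* and *Rbbp7*, whose products also belong to PRC2, lay at 0.04 and 0.00. *Rbbp7* had the smallest difference of all members, at 12.93, 12.97 and 12.97 in the mutant pools and 12.86, 12.96 and 13.04 in the wildtype pools (SE 0.09, interval -0.21 to 0.22, adjusted p = 0.996, limma).

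Polycomb was the most evenly divided group: 6 of 10 members were below 0 and 4 above, with a median of -0.07, and none passed either threshold in limma. The Polycomb median was -0.04 without mutant replicate 2 or wildtype replicate 1, -0.11 without mutant replicate 3 and -0.14 without wildtype replicate 3. After quantile normalisation it was -0.03. The PRC2 core had small differences. *Ezh2*, the main H3K27 methyltransferase of dividing cells, had a difference of 0.02 (SE 0.10), *Suz12* one of -0.07 (SE 0.10) and *Eed*, the subunit that reads the mark, one of 0.01 (SE 0.17). *Eed* was at 9.27, 9.20 and 8.86 in the mutant pools and 9.24, 9.28 and 8.78 in the wildtype pools (adjusted p = 0.98, limma), and replicate 3 was the lowest pool in both groups. *Ezh1*, the paralogue that persists in non-dividing cells, was at 8.92, 8.84 and 8.92 in the mutant pools and 9.14, 8.98 and 8.98 in the wildtype pools. It was the only Polycomb member with no overlap, at a difference of -0.14 (SE 0.10, adjusted p = 0.632, limma). *Jarid2*, a PRC2 cofactor needed for heart development in mice, had a difference of -0.13, with mutant replicate 3 at 10.83 beside wildtype pools of 10.81, 10.83 and 10.82.

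Within PRC1, *Bmi1* had the largest difference. It was at 6.97, 6.83 and 6.75 in the mutant pools and 7.15, 7.45 and 6.84 in the wildtype pools (difference -0.29, SE 0.16, interval -0.65 to 0.06, adjusted p = 0.606, limma). Wildtype replicate 3 fell inside the mutant range, and the spread among wildtype pools was the widest of any member (SD 0.31, n = 3). The chromodomain gene *Cbx2* was at 9.81, 9.62 and 10.04 in the mutant pools and 10.06, 10.03 and 9.99 in the wildtype pools (difference -0.20, SE 0.12, adjusted p = 0.617, limma). Here mutant replicate 3 exceeded 2 of the wildtype pools. *Cbx7* had a difference of -0.07, and the E3 ligase genes *Ring1* and *Rnf2* had differences of 0.09 and 0.03.

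The remaining modifiers had the lowest median of the 4 groups: all 8 measured were below 0, with a median of -0.18, and 2 of the 8 were lower in mutant hearts at an unadjusted p under 0.05, where 71.8% of all clusters were below 0 and 5.9% were lower. The median was -0.11 without mutant replicate 2, -0.27 without mutant replicate 3 and -0.13 after quantile normalisation. *Chd7*, a nucleosome remodeller that binds enhancers, was the member with the lowest p (cluster 6911537). Its values were 9.16, 8.94 and 9.08 in the mutant pools and 9.52, 9.49 and 9.14 in the wildtype pools. The first 2 wildtype pools were above all mutant pools, and wildtype replicate 3 lay just under mutant replicate 1. The difference was -0.32 (SE 0.13, interval -0.62 to -0.03, adjusted p = 0.606, limma), or a ratio of 0.799. The unadjusted call was lost without mutant replicate 2 (difference -0.26), mutant replicate 3 (-0.34), wildtype replicate 1 (-0.26) or wildtype replicate 2 (-0.27), and with the proliferation median as a covariate (-0.25), and was not made by the methods' t-test. Over all alternatives its adjusted p ran from 0.162 to 1.

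*Dnmt3a* encodes a de novo DNA methyltransferase (cluster 6792945). It was at 10.25, 10.09 and 10.45 in the mutant pools and 10.59, 10.54 and 10.46 in the wildtype pools. No pools overlapped, although mutant replicate 3 and wildtype replicate 3 were almost equal, and the difference was -0.27 (SE 0.12, interval -0.53 to -0.00185, adjusted p = 0.606, limma). With the replicate number as a block it was no longer called at an unadjusted p under 0.05, which leaves *Chd7* as the only member lower, 1 of 40 against 7.43% of all clusters (adjusted p = 0.485 for both genes in that fit, limma). The *Dnmt3a* call was also lost without mutant replicate 1 (difference -0.26), mutant replicate 2 (-0.18), wildtype replicate 1 (-0.24) or wildtype replicate 2 (-0.26), after quantile normalisation (-0.19), cyclic loess (-0.19) or centring on the clusters tested (-0.18), and with the proliferation covariate (-0.25). It was not made with clusters without a gene kept or by the methods' t-test.

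The other de novo enzyme gene, *Dnmt3b*, had the same order of pools, at 8.08, 7.94 and 8.23 in the mutant pools and 8.31, 8.28 and 8.25 in the wildtype pools (difference -0.20, SE 0.11, adjusted p = 0.606, limma). *Dnmt1*, the maintenance methyltransferase gene, was at 11.02, 10.89 and 11.25 in the mutant pools and 11.25, 11.21 and 11.21 in the wildtype pools (difference -0.17, SE 0.11, adjusted p = 0.629, limma). Mutant replicate 3 was among the wildtype pools for *Dnmt1*. *Ep300*, the gene of the enhancer acetyltransferase p300, was at 10.20, 10.02 and 10.36 in the mutant pools and 10.42, 10.47 and 10.42 in the wildtype pools (difference -0.24, SE 0.11, adjusted p = 0.606, limma). All mutant pools were lower for *Ep300*, with mutant replicate 3 the nearest.

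The demethylase genes had smaller differences. *Kdm1a*, which encodes the H3K4 demethylase LSD1, had a difference of -0.13 (SE 0.12), and *Kdm6a*, the X-linked H3K27 demethylase gene, had one of -0.07 (SE 0.13). *Hdac3*, the deacetylase of the NCoR complexes, was the member of this group with the smallest difference, at 11.96, 11.83 and 11.87 in the mutant pools and 11.93, 11.91 and 11.91 in the wildtype pools (difference -0.03, SE 0.09, adjusted p = 0.906, limma). Its interval of -0.24 to 0.18 lay within the 1.5-fold bound.

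**Figure D3:**
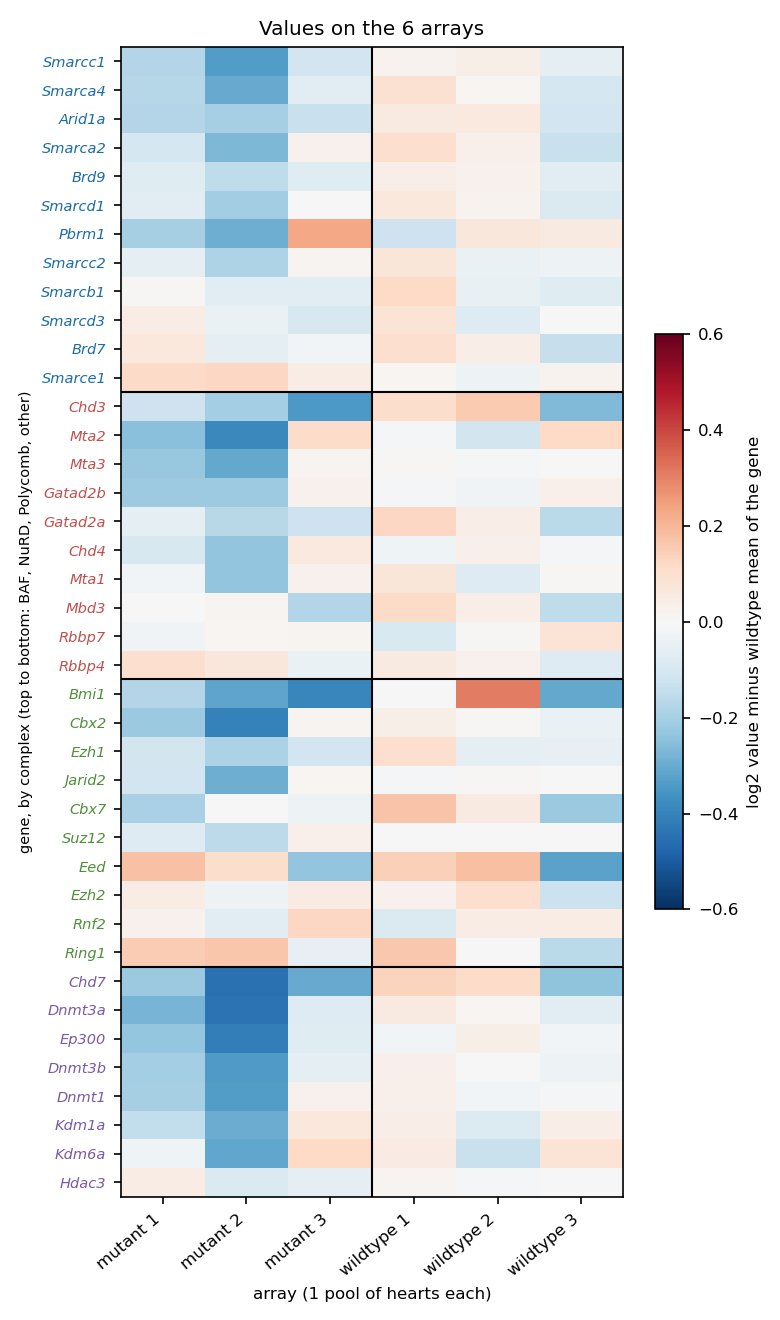
Log2 RMA values of the 40 members in the 6 pools, coloured by the deviation from the wildtype mean of the same gene, with mutant pools left of wildtype pools and genes grouped by complex. Mutant replicate 2 is the lowest mutant pool for 29 members, and wildtype replicate 3 is the lowest wildtype pool for 22.

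The spread among pools of a genotype was of the size of the differences between genotypes. The median SD of a member was 0.11 among mutant pools and 0.08 among wildtype pools. Mutant replicate 2 was the lowest mutant pool for 29 of 40 members, or 72.5% (53.3% of all clusters), and mutant replicate 3 the highest mutant pool for 24 of 40, or 60% (46.3% of all clusters). Wildtype replicate 3 was the lowest wildtype pool for 22 of 40, or 55% (73.9% of all clusters). Wildtype replicate 3 sat at or near the mutant level for *Chd7*, *Arid1a*, *Chd3*, *Bmi1* and *Gatad2a*. Mutant replicate 3 sat at or near the wildtype level for *Mta2*, *Mta3*, *Ep300*, *Dnmt1*, *Cbx2* and *Jarid2*. These genes were picked out after their values were seen.

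Without wildtype replicate 3, 5 of 40 members were lower at an unadjusted p under 0.05 (18.2% of all clusters), and without mutant replicate 3, 8 of 40 were (16.7% of all clusters). The count was 0 without mutant replicate 2 (2.24% of all clusters), wildtype replicate 1 (1.72%) or wildtype replicate 2 (1.82%), and 1 without mutant replicate 1 (2.98%). The median of the other modifiers per array was 10.23, 10.05 and 10.41 in the mutant pools and 10.50, 10.50 and 10.44 in the wildtype pools. The median of 9 endothelial and endocardial markers had the same order among mutant pools, at 10.46, 10.22 and 10.77, against 10.79, 10.81 and 10.82 in the wildtype pools, with 8 of 9 below 0 and 4 lower at an unadjusted p under 0.05 (71.8% and 5.9% of all clusters). The part of endothelial content in the members' values was not tested. With the erythroid median as a covariate, 9 of 40 members were lower at an unadjusted p under 0.05, or 22.5%, beside 22.6% of all clusters. With the proliferation median as a covariate, 0 were, beside 3.26% of all clusters. Of the 17 proliferation genes themselves, 12 were below 0 with a median of -0.08, and 0 passed either threshold in limma.

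**Figure D4:**
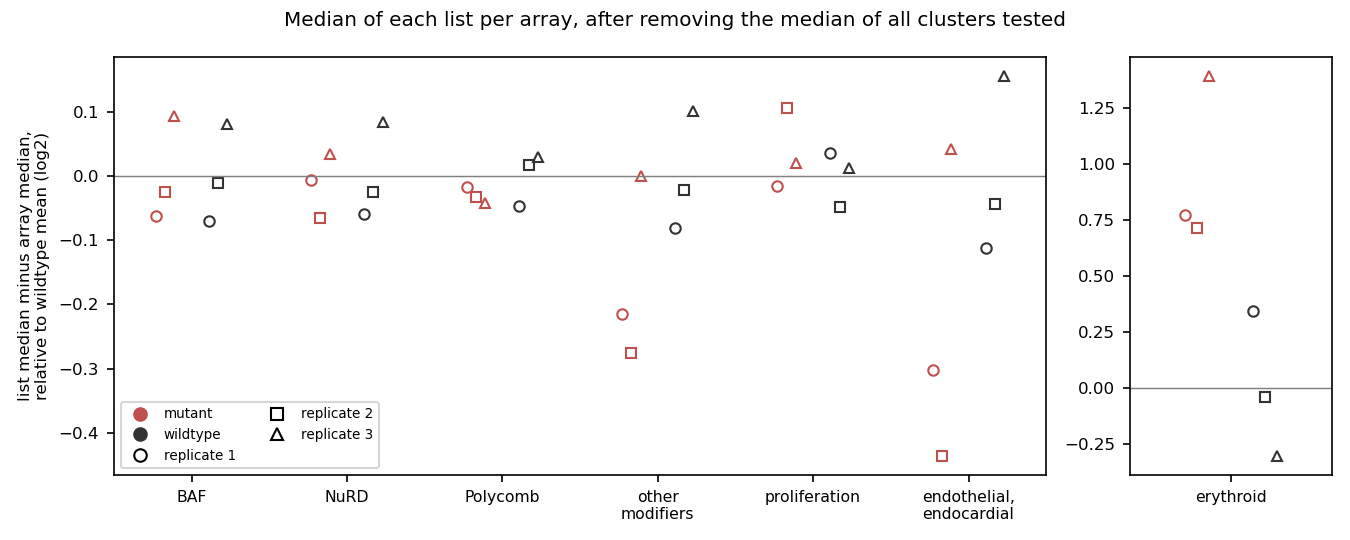
Median log2 value of each complex group and of marker lists in every pool, after removal of the median of all clusters tested on that array and relative to the wildtype mean (log2, y axis), with mutant pools left of wildtype pools. The mutant minus wildtype differences of these relative medians are 0.00 for BAF, -0.01 for NuRD, -0.03 for Polycomb and -0.16 for the other modifiers.

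Relative to the median of the clusters tested on the same array, the group medians differed between genotypes by 0.00 for BAF, -0.01 for NuRD, -0.03 for Polycomb and -0.16 for the other modifiers. The erythroid list differed by 0.96 and the endothelial list by -0.23 on the same measure. The difference between the other modifiers and the complexes was not tested. When each array was centred on the median of the clusters tested, the median difference of all members was -0.01. Under that centring 11 members changed sign, among them *Smarcd3* (0.06) and *Brd7* (0.09). The median of the single-gene differences was then -0.095 for the other modifiers and 0.019 for Polycomb. That measure differs from the difference of list medians given above.

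Further subunits and enzymes of the same kinds came from a list of 83 genes, of which 56 were tested. Of these, 51 were below 0 (91.1%, against the 71.8% of all clusters), with a median of -0.12, and 0 passed the adjusted threshold. Past an unadjusted p of 0.05 were 2 of 56, both lower in mutants (3.57%, against the 5.9% of all clusters). By group, the counts below 0 were 10 of 10 for BAF, 3 of 4 for NuRD, 15 of 18 for Polycomb and 23 of 24 for the other modifiers. The median differences were -0.10, -0.15, -0.10 and -0.14 in that order. Among these genes NuRD, and not the other modifiers, had the lowest median. *Phf19* encodes the Polycomb-like protein through which human HIC1 contacts PRC2. It was at 7.14, 7.06 and 7.09 in the mutant pools and 7.55, 7.43 and 7.31 in the wildtype pools, with every mutant pool lower (difference -0.33, SE 0.10, adjusted p = 0.606, limma). *Phf19* stayed past an unadjusted p of 0.05 in every alternative run, with an adjusted p of 0.168 to 1. *Zfpm2*, the gene of the GATA4 cofactor FOG2 that binds NuRD, was at 8.49, 8.22 and 8.52 in the mutant pools and 8.90, 8.82 and 8.52 in the wildtype pools (difference -0.34, SE 0.14, adjusted p = 0.606, limma). Its highest mutant pool and lowest wildtype pool had nearly the same value. The unadjusted call of *Zfpm2* was lost without mutant replicate 2 (difference -0.24), wildtype replicate 1 (-0.26) or wildtype replicate 2 (-0.30), and with the proliferation covariate (-0.26). It was not made by the methods' t-test on log2 or linear values.

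Many of these complexes use one of several paralogous subunits, so the difference between paralogues within each array was compared on the deposited values, which a constant shift of a whole array does not alter. Of 13 pairs planned, 11 had both genes measured, and 3 did not overlap between genotypes. The share over other gene pairs was not computed, so this count has no background beside it. *Smarcc1* minus *Smarcc2* was 0.78, 0.76 and 0.77 in the mutant pools and 0.86, 0.98 and 0.88 in the wildtype pools, a difference of -0.14. *Smarca4* minus *Smarca2* was 2.92, 2.95 and 2.89 in the mutant pools and 2.98, 2.96 and 3.02 in the wildtype pools, a difference of -0.06. *Ezh2* minus *Ezh1* was higher in mutants, at 2.41, 2.42 and 2.43 in the mutant pools and 2.19, 2.41 and 2.18 in the wildtype pools, a difference of 0.16, although wildtype replicate 2 was almost at the mutant level. The exact two-sided permutation test gave p = 0.1 for each of the 3 pairs, the smallest that 3 against 3 pools allow, and an adjusted p of 0.367 over the 11 pairs. The other 8 pairs, including *Chd3* with *Chd4*, *Mta1* with *Mta3* and *Smarcd1* with *Smarcd3*, overlapped. The size of a paralogue difference reflects the probes as well as the transcripts, so only its change between genotypes is described.

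**Figure D5:**
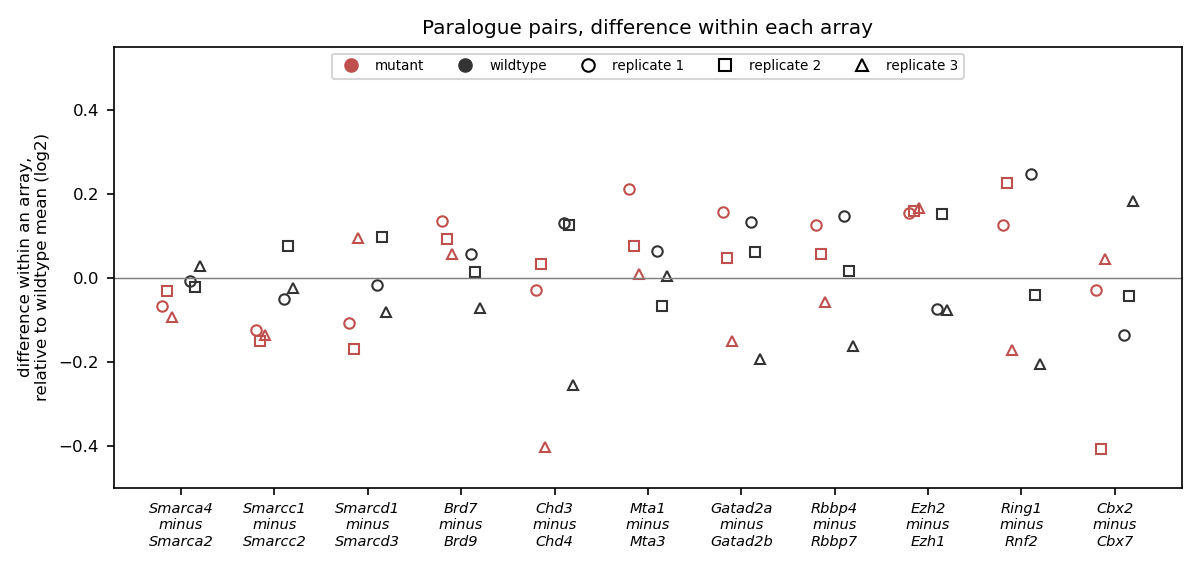
Difference between 2 paralogues on the same array (log2, y axis), shown for each of the 11 measured pairs as the deviation from the wildtype mean of the pair, with mutant pools left of wildtype pools. The genotypes do not overlap for *Smarca4* with *Smarca2*, *Smarcc1* with *Smarcc2* and *Ezh2* with *Ezh1*.

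HIC1 binds DNA at a response element whose core is GGGCA, and HIC2 has a closely related zinc finger domain. Promoter sequences of 250 bases before the start site (RefSeq, GRCm38.p6, the first one listed for each gene) were matched for 34 of the 40 measured members, and not for *Cbx2*, *Chd3*, *Chd7*, *Hdac3*, *Mta3* and *Smarce1*. The core, GGGCA or its reverse complement TGCCC, was present in 15 of 34 members (44.1%), against 12763 of 27025 promoters of the same length (47.2%). The full HIC1 response element, searched on both strands, was in 0 of 34 members and in 38 of all promoters (0.141%), and each full match contains a core. The members' promoters had a median GC content of 67.2%, against 52% for all promoters, and a median of 23 CpG dinucleotides, against 6. Among the 12 members with the lowest p, 8 were matched and 5 held the core. Those 5 are printed because they carry the motif and belong to genes whose values are given above, 5′ to 3′ on the strand of the gene, with the core in capitals.
Smarcc1, chr9:110131774-110132023, plus strand: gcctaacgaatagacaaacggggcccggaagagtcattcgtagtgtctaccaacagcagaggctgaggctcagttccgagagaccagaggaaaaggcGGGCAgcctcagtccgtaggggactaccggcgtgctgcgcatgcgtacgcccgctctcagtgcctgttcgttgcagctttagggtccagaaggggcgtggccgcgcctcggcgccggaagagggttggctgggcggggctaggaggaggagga
Arid1a, chr4:133756770-133757019, minus strand: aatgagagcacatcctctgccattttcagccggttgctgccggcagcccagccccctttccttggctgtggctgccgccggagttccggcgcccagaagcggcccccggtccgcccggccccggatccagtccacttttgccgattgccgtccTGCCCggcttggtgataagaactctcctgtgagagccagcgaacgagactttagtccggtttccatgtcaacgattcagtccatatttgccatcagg
Smarca4, chr9:21615919-21616168, plus strand: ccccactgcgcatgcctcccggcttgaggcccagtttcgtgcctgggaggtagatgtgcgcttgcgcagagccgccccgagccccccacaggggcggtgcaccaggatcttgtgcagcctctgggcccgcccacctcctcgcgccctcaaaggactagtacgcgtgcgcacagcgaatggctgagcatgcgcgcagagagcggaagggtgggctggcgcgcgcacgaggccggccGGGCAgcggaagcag
Ep300, chr15:81585964-81586213, plus strand: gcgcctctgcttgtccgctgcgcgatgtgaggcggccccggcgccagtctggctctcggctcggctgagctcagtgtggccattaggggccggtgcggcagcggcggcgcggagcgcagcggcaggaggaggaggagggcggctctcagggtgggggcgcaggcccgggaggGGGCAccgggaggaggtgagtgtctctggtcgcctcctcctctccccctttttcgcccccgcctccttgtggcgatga
Dnmt3b, chr2:153649199-153649448, plus strand: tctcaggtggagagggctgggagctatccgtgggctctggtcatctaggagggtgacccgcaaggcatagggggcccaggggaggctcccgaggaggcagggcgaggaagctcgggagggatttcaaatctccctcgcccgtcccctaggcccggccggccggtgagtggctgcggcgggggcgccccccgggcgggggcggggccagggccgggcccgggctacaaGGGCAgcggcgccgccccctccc

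In these windows the core began 153 bases before the start site in *Smarcc1*, 97 in *Arid1a*, 15 in *Smarca4*, 78 in *Ep300* and 23 in *Dnmt3b*, and each window held a single core. In *Arid1a* it read TGCCC and in the other 4 GGGCA. *Dnmt3a*, *Dnmt1* and *Bmi1*, also among the 12, had no core in the window. *Smarcd3*, with a difference near 0, had 3 cores and *Chd4* had 2. A match describes the letters of the window and no binding was measured.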

How the data were processed

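RNA from pools of E9.5 hearts was hybridised to 6 Affymetrix Mouse Exon 1.0 ST arrays, 3 per genotype. The authors deposited log2 values from RMA in Affymetrix Expression Console, 1 per transcript cluster of the core gene predictions, and these were taken as they stand. The software version and build were not given in the sources used here. All columns were used.

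The table held 23332 transcript clusters, 16015 of them with an annotated gene. Those whose linear mean exceeded 100 in the higher genotype, 10439 in all, entered limma 3.58.1 (lmFit, eBayes; R 4.3.3). P-values were adjusted over all of them by Benjamini-Hochberg, with a threshold of 0.05. The methods' t-test assumed equal variances. The model was tested on simulated data with independent errors and no shift of whole arrays. That test therefore does not cover the array-wide shifts seen here. Python 3.11.15 and matplotlib 3.10.9 were used for promoters and figures. No arrays were identical, correlations between arrays were 0.988 to 0.993, and array medians over all clusters were 7.18 to 7.31. The number of arrays limits the precision. Pools are described as independent biological replicates. The limma p-values set a difference against the spread between pools, moderated towards that of all clusters tested.

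Members and lists were chosen with earlier results of these data known. All members are named. Full values are given for the 12 with the lowest p and for the smallest difference in each group, and other values follow a choice made after seeing them. Partners are named at an unadjusted p under 0.05, at most 4 per group. Marker lists (erythroid, cardiomyocyte, endothelial and endocardial, proliferation, epicardial and proepicardial, liver and yolk sac endoderm, neural and neural crest, pharyngeal and foregut epithelium, macrophage and white cell) were read in the same fit.

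Deviations from the genotype means correlated at 0.311, 0.142 and 0.458 between arrays of the same replicate number and at -0.424 to 0.303 otherwise. Same-numbered arrays were therefore blocked as pairs in an alternative fit, but no source gives the meaning of the numbers. The alternatives were the t-test on log2 or linear values, an intensity trend, robust variances, other intensity filters, inclusion of unannotated clusters, cyclic loess, quantile normalisation, median centring, the replicate block, erythroid and proliferation covariates, an average over the clusters of each gene, and each array left out. Centring on the median of the clusters tested was chosen after seeing the data.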

Additional observations from a re-analysis of the deposited data

How the results depend on the processing

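No alternative gave a member past the adjusted threshold. For the partners the scalings, the replicate block and the arrays left out were summarised, and these gave 0 past it. The count of members lower at an unadjusted p under 0.05 was 2 in the reported fit, beside 5.9% of all clusters. It was 1 with clusters without a gene kept (4.43% of all clusters), quantile normalisation (5.71%), cyclic loess (4.57%), centring on the clusters tested (3.69%) or the replicate block (7.43%). In each case that 1 was among the other modifiers. The count was 4 after median centring (BAF 1), beside 11.2% of all clusters, and 0 with the proliferation covariate (other modifiers 0), beside 3.26%. With the erythroid covariate it was 9 (BAF 3, Polycomb 1, other modifiers 5), beside 22.6%. The intensity trend gave 3 (BAF 1, other modifiers 2), beside 5.59%. On log2 values the methods' t-test gave BAF 2 and other modifiers 0, with 1 member higher, beside 4.05% of all clusters lower and 1.58% higher. On linear values it gave 1 lower (BAF 1, other modifiers 0) and 1 higher, beside 4.17% and 1.58%. The block changed no other call.

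Partners lower numbered 9 of 56 after median centring, beside 11.2% of all clusters. After cyclic loess and after centring on the clusters tested 1 partner was higher, beside 3.73% and 4.4% of all clusters. Members with all mutant pools below numbered 10 after median centring, 4 after quantile normalisation, 3 after cyclic loess and 2 after centring on the clusters tested. Those with all mutant pools above numbered 0, 0, 1 and 2. The share of all clusters was not computed under these scalings, so these counts have no background beside them. The median difference after cyclic loess was -0.01 for BAF (-0.00916) and -0.1136 for the other modifiers. After centring on the clusters tested it was -0.005485 for all members, 0.0007367 for BAF, -0.01518 for NuRD, 0.01854 for Polycomb and -0.09515 for the other modifiers. With the erythroid covariate the medians were -0.25 for all members, -0.24 for BAF, -0.23 for NuRD, -0.20 for Polycomb and -0.37 for the other modifiers.

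With each array left out, members lower numbered 0 to 8, BAF 0 to 1, NuRD 0 to 2, Polycomb 0 to 1, other modifiers 0 to 4, partners lower 1 to 15 and partners higher 0 to 1. The 15 were without wildtype replicate 3, beside 18.2% of all clusters lower, and without mutant replicate 3 there were 7, beside 16.7%. Differences near 0 changed sign. With each array left out they ran from -0.15 to 0.14 for *Eed*, -0.25 to 0.0162 for *Pbrm1*, -0.0722 to 0.046 for *Brd7*, -0.12 to 0.00533 for *Mta1*, -0.0446 to 0.0432 for *Rbbp7*, -0.17 to 0.0475 for *Kdm6a*, -0.0686 to 0.0115 for *Smarcd3*, -0.13 to 0.00962 for *Mbd3*, -0.018 to 0.0743 for *Rnf2*, -0.079 to 0.0177 for *Smarcb1*, -0.18 to 0.012 for *Cbx7* and -0.0415 to 0.0716 for *Ezh2*. Median centring put *Rbbp7* at -0.000175. Quantile normalisation put *Smarcc2* at 0.000622, *Smarcd3* at 0.00822, *Brd7* at 0.0552 and *Kdm6a* at 0.0119. Cyclic loess put *Smarcb1* at 0.0165, *Smarcc2* at 0.00624, *Smarcd3* at 0.0328, *Brd7* at 0.0706, *Mbd3* at 0.00191, *Kdm6a* at 0.0157 and *Hdac3* at 0.00961. Centring on the clusters tested put *Smarcb1* at 0.047, *Smarcc2* at 0.0158, *Smarcd3* at 0.0597, *Pbrm1* at 0.00274, *Brd7* at 0.0857, *Mta1* at 0.0148, *Mbd3* at 0.037, *Suz12* at 0.0209, *Cbx7* at 0.0162, *Kdm6a* at 0.0166 and *Hdac3* at 0.0574. The erythroid covariate put *Ezh2* at -0.0951 and *Eed* at -0.0418, and the proliferation covariate *Brd7* at 0.0421, *Mbd3* at 0.00163, *Rbbp7* at -0.0331 and *Cbx7* at 0.00548. The causes were not tested.

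With 3 pools per genotype the standard errors of the members were 0.09 to 0.17, which sets the size of difference that can be told from 0. With each array left out, the paralogue differences that did not overlap were -0.08 to -0.05 for *Smarca4* with *Smarca2* and -0.16 to -0.10 for *Smarcc1* with *Smarcc2*. For *Ezh2* with *Ezh1* they were 0.12 to 0.24. Their direction could not change, since pools that do not overlap keep their order when an array is removed.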

Other observations

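The other marker lists were read for content of the dissected tissue. All 5 epicardial and proepicardial markers were tested, 4 were below 0 and the median difference was -0.31, with 0 past an unadjusted p of 0.05 in limma. The neural and neural crest list had 2 of 7 annotated genes above the intensity filter and the pharyngeal and foregut list 3 of 6, with median differences of 0.10 and 0.13. Of 4 macrophage and white cell markers, 1 passed the filter, and the defining marker *Ptprc* was below it, at 3.88, 3.84 and 3.95 in the mutant pools and 3.91, 3.84 and 3.90 in the wildtype pools. The 4 liver and yolk sac markers tested were all above 0, with a median of 1.31. Of these, 1 was higher at an unadjusted p under 0.05 in limma, where 1.68% of all clusters were. The filter takes the higher genotype, and *Alb* and *Ambp* passed it through the mutant pools, mainly mutant replicate 3 (8.28 and 8.10). Their wildtype values were 4.57 to 4.87 and 4.90 to 4.98. *Apoa4*, below the filter, had means of 6.09 in mutant and 6.41 in wildtype pools, so the shared direction partly follows from the filter.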
